A study of Mus musculus with 50 samples.

Results

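The resting soleus of wild-type (WT) mice was compared with that of mice lacking Dnmt3a in muscle (mD3AKO, written KO in the plots), using the muscles that the labels give as basal: 5 WT and 5 mD3AKO samples of the 44 samples with methylation counts. WT mice carried Dnmt3a flox/flox without Cre, and mD3AKO mice carried Dnmt3a flox/flox with a Cre transgene driven by the muscle creatine kinase promoter (mCK-Cre), so both genotypes had LoxP sites around exon 19 of Dnmt3a. This promoter is active late in muscle differentiation, and satellite cells and cells other than muscle keep an intact gene in the model. All mice were C57BL/6, and each sample was a single soleus, a calf muscle rich in slow fibres, from a separate mouse of 12 weeks that had spent 30 min on a treadmill that did not run. The WT group held 2 females and 3 males and the mD3AKO group 3 females and 2 males. The remaining 34 samples (16 WT and 18 mD3AKO) were muscles taken 10, 30 or 60 min after a treadmill run, and they were used only to compare the genotype difference at rest with that in other mice of the same genotypes.

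DNMT3A is a de novo DNA methyltransferase, an enzyme that adds methyl groups to cytosines in CpG dinucleotides that carry none on either strand, whereas DNMT1 mainly copies existing methylation after replication. Methylated CpGs are frequent in the bodies of transcribed genes and between genes, while most CpG islands, stretches rich in CpG that often overlap gene starts, carry little. Muscle fibres arise by fusion of cells that have left the cell cycle, and further nuclei are added to them from satellite cells.

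Methylation was read by reduced representation bisulfite sequencing (RRBS), in which MspI cuts DNA at CCGG and bisulfite converts unmethylated cytosines, and a methylation level is the percentage of calls at a CpG that were methylated. The 205304 CpGs lay 69.1% in CpG islands, 14.1% in shores (the 2000 bp beside an island) and 16.8% in open sea. Islands were called here on the reference sequence and not taken from the authors. A CpG counted as island where any 200 bp window over it had a GC fraction of at least 0.5. That window also needed a ratio of observed to expected CpGs of at least 0.6. The resting samples held 13731392 to 30221548 calls each and a median coverage of 50 to 114 calls per CpG. No pair of samples of 1 group agreed within sampling noise, since the chi-square per CpG was 6.65 to 13.9 over the 20 pairs. The targeted gene gave no check of the labels. Of 21 CpGs measured in Dnmt3a, none lay in exon 19 (chromosome 12, 3902666 to 3902814), the nearest was 11000 bp away, and at 0 of them was the relative coverage of every mD3AKO sample below that of every WT sample. RRBS measures no RNA, so the tissue label could not be checked against marker transcripts. In whole muscle, a smaller share of cells carrying methylation and less methylation per cell cannot be told apart.

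At rest, mD3AKO muscle had lower methylation than WT muscle at a few places, and no place passed the main test in the other direction. Counts were summed over the authors' 51038 clusters, which the study describes as CpGs grouped at gaps of up to 100 bp. The measured CpGs of a cluster could lie farther apart, and grouping the measured CpGs alone at 100 bp gave 60624 clusters. Of the authors' clusters, 3 (0.00588%) were called lower and 0 higher at an adjusted p under 0.05 (edgeR quasi-likelihood test, two-sided). They lay in Unc45b, which encodes a chaperone that folds the myosin motor of striated muscle, in Comtd1, which encodes a protein with a catechol-O-methyltransferase domain, and in Fut11, which encodes a member of the fucosyltransferase family. All 3 lay in CpG islands (25 of 27 CpGs in Comtd1, every CpG in Unc45b and Fut11) that were methylated at a low level in WT and nearly unmethylated in mD3AKO. At an unadjusted p under 0.05, 1677 clusters (3.29%) were lower and 715 (1.4%) higher. The likelihood ratio test called 26 clusters lower and 3 higher, and limma 10 lower and 1 higher. The 1 higher in limma, a single CpG in the body of Wipf1, was also among the 3, and the other 2 lay in no gene body or promoter (named after their values were seen).

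The Unc45b cluster (chromosome 11, 82930663 to 82931985, GRCm38) held 33 CpGs, all intronic and 20840 bp from the start of the gene, with 1106 to 4240 calls per sample. Its level was 24.9, 10.3, 17.1, 23.8 and 19.5% in WT samples 1, 11, 13, 14 and 20, and 1.19, 2.34, 1.95, 1.71 and 1.13% in mD3AKO samples 2, 8, 12, 21 and 24 (the order used throughout). The lowest WT sample was thus well above the highest mD3AKO sample. The mean fell from 19.1% ± 5.86 to 1.66% ± 0.513 (SD, n = 5 each), a log2 odds ratio of -3.79 (SE 0.61, edgeR adjusted p = 0.0112). Of the 33 CpGs, 30 had a lower mean in mD3AKO, and at 9 the samples did not overlap. Those 9 all lay in the first 193 bp, which are shown for this reason, with measured CpGs in capitals. The stretch is read 5′ to 3′ on the plus strand of chr11:82930655-82930847 (GRCm38.p6), lies in an intron, and holds 29 CGs of which 14 were measured.

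Unc45b: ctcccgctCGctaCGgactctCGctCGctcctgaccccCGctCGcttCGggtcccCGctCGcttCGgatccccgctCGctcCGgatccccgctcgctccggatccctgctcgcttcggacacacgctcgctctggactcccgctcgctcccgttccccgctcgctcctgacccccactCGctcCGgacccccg

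All 14 measured CpGs of this stretch had lower means in mD3AKO. The WT mean of single CpGs there was 2.44 to 49.5% and the mD3AKO mean 0.208 to 4.79%. The fall was steepest at position 82930663, from 49.5% ± 6.91 to 0.734% ± 1.02 (SD, n = 5 each). The stretch holds a repeated run of 25 bp, and how uniquely reads of such a repeat were placed was not tested. The call was lost without WT 14 (edgeR adjusted p = 0.0828) and without WT 20 (adjusted p = 0.0585). It was also lost when only the 10 resting samples were fitted (adjusted p = 0.340) and in the quasi-binomial model (adjusted p = 0.18).

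The Comtd1 cluster (chromosome 14, 21847637 to 21849016) held 27 CpGs, 17 in coding exon, 1 in an untranslated region (UTR), 2 in other exon, 3 in intron and 4 upstream, with 1906 to 4676 calls per sample. Its level was 4.93, 5.95, 3.06, 5.44 and 6.06% in the WT samples and 1.35, 0.374, 0.119, 0 and 1.11% in the mD3AKO samples, again without overlap. The mean fell from 5.09% ± 1.22 to 0.59% ± 0.605 (SD, n = 5 each, log2 odds ratio -3.84, SE 0.69, edgeR adjusted p = 0.0483). The Fut11 cluster (chromosome 14, 20695012 to 20695656) held 22 CpGs, all in coding exon, with 661 to 3046 calls per sample. Its level was 2.27, 5.25, 5.19, 20.2 and 4.03% in WT and 0.73, 0.558, 0.196, 0.605 and 0.12% in mD3AKO. No sample overlapped, although WT 14 stood far above the other WT samples, and the mean fell from 7.38% ± 7.25 to 0.442% ± 0.268 (SD, n = 5 each, log2 odds ratio -3.90, SE 0.72, edgeR adjusted p = 0.0496). Both calls sat close to the threshold. That of Comtd1 held without mD3AKO 2 or mD3AKO 24 and was lost without each of the other samples (adjusted p 0.0114 to 0.187), and that of Fut11 held without WT 1 or mD3AKO 2 and was lost without each of the others (adjusted p 0.0428 to 0.187). For comparison with Unc45b, the short stretch outside any UTR that held the most measured CpGs is shown for each. They lie on the plus strand at chr14:21847629-21847805 for Comtd1 and chr14:20695574-20695665 for Fut11.

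Comtd1: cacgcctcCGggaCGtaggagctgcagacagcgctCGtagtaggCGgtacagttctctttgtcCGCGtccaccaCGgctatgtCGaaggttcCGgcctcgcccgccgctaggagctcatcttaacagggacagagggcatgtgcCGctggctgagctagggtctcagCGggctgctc

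Fut11: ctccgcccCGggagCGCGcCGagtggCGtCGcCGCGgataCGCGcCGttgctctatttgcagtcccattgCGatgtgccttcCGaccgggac

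In the Comtd1 stretch 11 of 16 CGs were measured and all 11 had lower means in mD3AKO, with samples apart at 1. In the Fut11 stretch 13 of 15 were measured and 11 were lower, with samples apart at 0. Over the whole clusters, samples were apart at 2 of 27 CpGs in Comtd1 and 1 of 22 in Fut11, against 9 of 33 in Unc45b. The Fut11 CpG, at position 20695035, had 6.91 to 40.9% in WT and 0% in every mD3AKO sample.

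**Figure D1:**
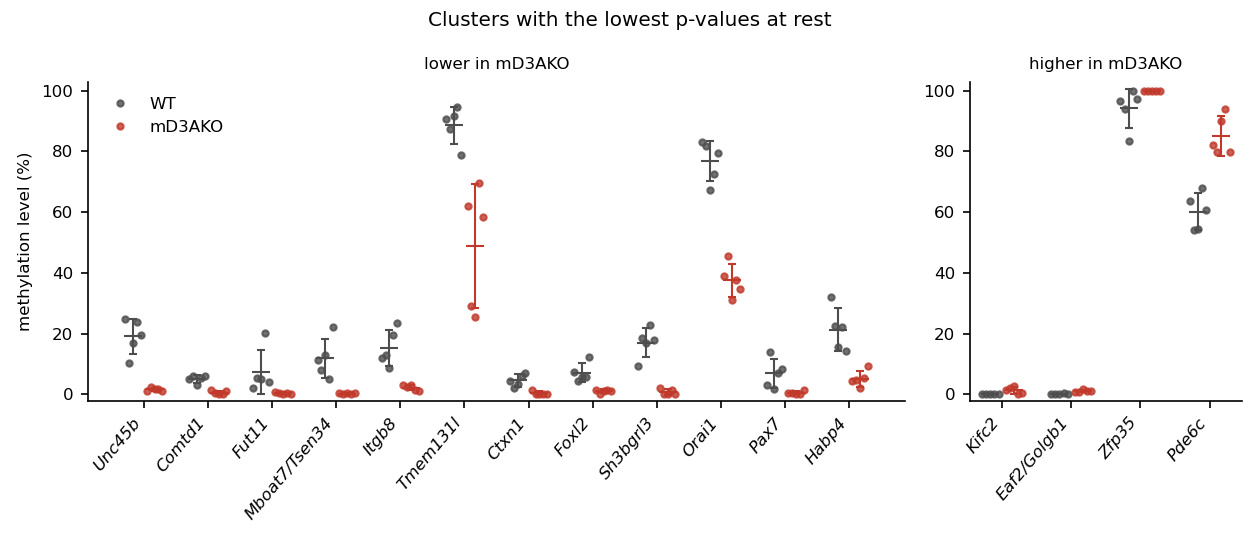
Methylation level in percent (y axis) of the clusters chosen by p-value at rest, with a dot per sample and the mean ± SD (n = 5) as a bar for WT and mD3AKO. In Unc45b the WT samples lie at 10.3 to 24.9% and the mD3AKO samples at 1.13 to 2.34%.

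**Figure D2:**
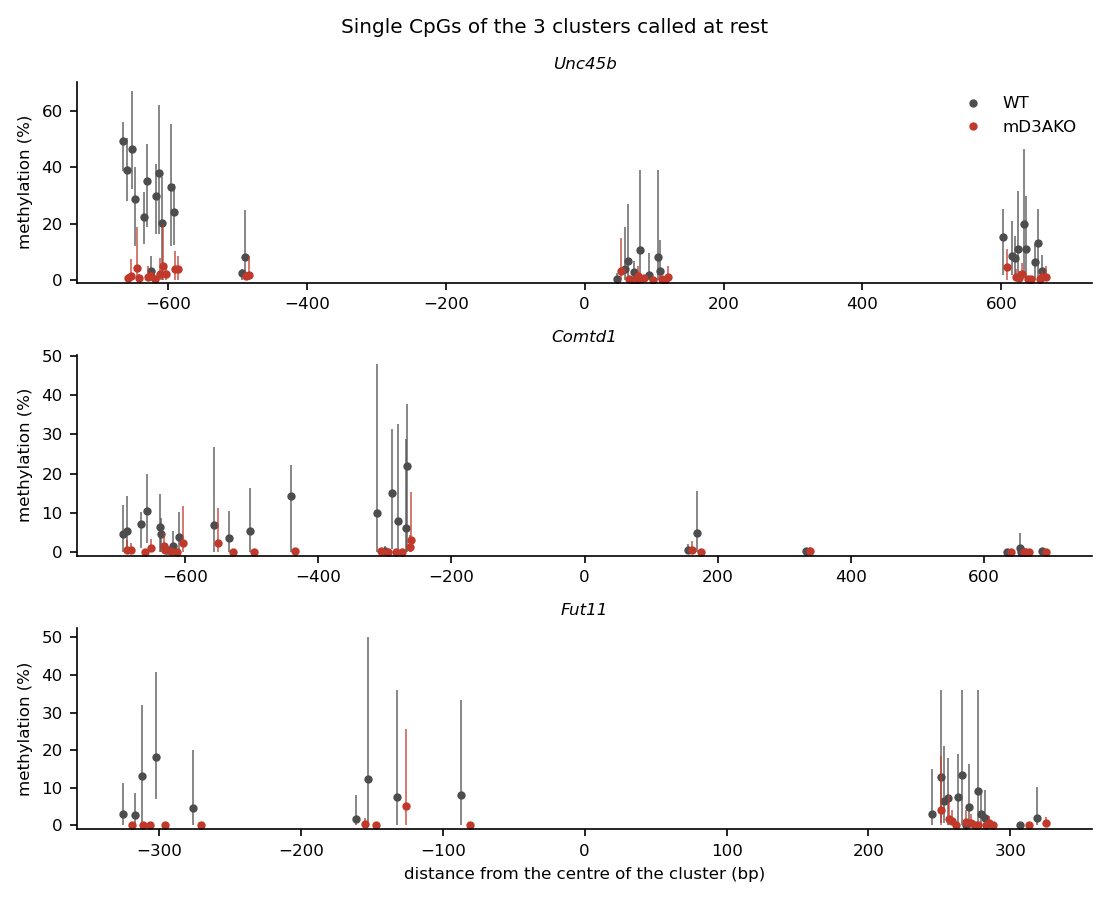
Methylation level in percent (y axis) of single CpGs in the 3 clusters called at rest by distance from the centre of the cluster in bp (x axis), with a point for the mean of 5 samples and a vertical line from the lowest to the highest sample, and the genotypes drawn slightly apart. The falls in Unc45b are deepest at the first CpGs of the cluster, where WT means reach 49.5%.

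The naming rule took 12 clusters lower in mD3AKO in order of p, of which the other 9 missed the threshold (edgeR adjusted p 0.0535 to 0.209). The samples of the genotypes did not overlap at any of the 12, which is a description, since the clusters were ordered by this difference. Of all clusters, 395 (0.774%) had every mD3AKO sample below every WT sample and 129 (0.253%) the reverse. WT means at the 12 ran from 4.60 to 88.6%, and were under 25% at 10 of them. CpGs mostly in an island were found at 8.

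Of these, Orai1 was largely methylated and Pax7 little. Orai1 encodes the pore of the store-operated calcium channel, which refills calcium in muscle fibres, and its cluster (chromosome 5, 123029527 to 123029615, 5 CpGs in coding exon, 207 to 894 calls) was largely methylated. The WT samples had 83.1, 81.8, 67.4, 72.5 and 79.5% and the mD3AKO samples 39.0, 45.5, 31.1, 37.5 and 34.7%. The means were 76.8% ± 6.71 and 37.6% ± 5.38 (SD, n = 5 each, log2 odds ratio -2.51, SE 0.55, edgeR adjusted p = 0.188). The mD3AKO samples thus kept part of the methylation, unlike at Unc45b. Pax7 encodes the transcription factor that marks satellite cells, the stem cells of muscle, and its intronic island (chromosome 4, 139828380 to 139828539, 12 CpGs, 334 to 1986 calls) was lowly methylated in both genotypes. It had 2.99, 13.9, 1.94, 7.22 and 8.54% in WT and 0.52, 0.588, 0.151, 0.124 and 1.44% in mD3AKO (means 6.92% ± 4.79 and 0.564% ± 0.531, SD, n = 5 each, edgeR adjusted p = 0.204). The study followed Pax7 on the basis of these samples, so this value is not independent of that choice. Both stretches are shown because they hold a lower level in mD3AKO at high and at low methylation in WT. They lie at chr5:123029519-123029624 (coding exon) and chr4:139828372-139828547 (intron), plus strand.

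Orai1: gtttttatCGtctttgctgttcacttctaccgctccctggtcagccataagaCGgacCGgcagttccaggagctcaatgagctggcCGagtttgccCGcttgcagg

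Pax7: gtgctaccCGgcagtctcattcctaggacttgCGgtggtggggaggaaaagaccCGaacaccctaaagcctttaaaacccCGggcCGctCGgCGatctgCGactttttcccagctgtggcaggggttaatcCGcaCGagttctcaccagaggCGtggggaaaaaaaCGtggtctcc

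At Orai1 the fall was steepest at position 123029571, from 82.9 to 25.5%, and smallest among the 5 CpGs at 8.46 points. At Pax7 it was steepest at 139828524, from 15.0 to 0.164%, and 11 of 12 CpGs had a lower mean.

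A cluster of 3 CpGs in coding exon of Tsen34, a subunit of the tRNA splicing endonuclease, is also the promoter of Mboat7, which encodes an acyltransferase of phosphatidylinositol (chromosome 7, 3695056 to 3695082, 224 to 940 calls). Its WT samples had 11.4, 8.19, 13.0, 5.06 and 22.1% and its mD3AKO samples 0.573, 0, 0.369, 0.249 and 0.319%, so the samples did not overlap. The edgeR adjusted p was 0.0535 as a cluster and 0.0478 among promoters, from the same counts. An intronic cluster of Tmem131l, which encodes a transmembrane protein, had 90.7, 87.2, 91.6, 94.7 and 78.7% in WT and 62.0, 29.0, 25.3, 69.7 and 58.5% in mD3AKO (chromosome 3, 83934508 to 83934550, 3 CpGs, adjusted p = 0.0819). Here the mD3AKO samples spread widely (48.9% ± 20.3 against 88.6% ± 6.14 in WT, SD, n = 5 each). An intronic cluster of Habp4, an RNA- and hyaluronan-binding protein, had 32.1, 22.4, 15.6, 22.3 and 14.3% in WT and 4.46, 4.62, 2.14, 5.29 and 9.47% in mD3AKO (chromosome 13, 64162736 to 64163009, 8 CpGs, adjusted p = 0.209). The Tsen34 stretch, chr7:3695048-3695091, is shown since its 3 measured CpGs are all the CGs it holds.

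Tsen34: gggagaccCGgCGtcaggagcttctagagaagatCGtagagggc

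The remaining 4 of the 12 lay at most 2959 bp from a gene start. The farthest was Foxl2, where the CpGs lay that far inside the gene. UTRs of both ends of a gene were counted together. Itgb8, an integrin subunit, had 15.3% ± 6.00 in WT and 2.24% ± 0.858 in mD3AKO over 6 CpGs of a UTR (edgeR adjusted p = 0.0676). Sh3bgrl3, a small protein related to thioredoxins, had 17.1% ± 4.85 and 0.718% ± 1.03 over 4 CpGs upstream of the gene (adjusted p = 0.142). Ctxn1, a small membrane protein known from cortical neurons, had 4.60% ± 2.07 and 0.383% ± 0.623 over 14 intronic CpGs (adjusted p = 0.117), and Foxl2, a forkhead factor of the ovary, had 7.09% ± 3.11 and 1.14% ± 0.523 over 7 CpGs of a UTR (adjusted p = 0.142, SD, n = 5 for each).

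Methylation was higher in mD3AKO with much less separation. The 4 clusters named in this direction had edgeR adjusted p from 0.826 to 0.887, and the samples did not overlap at 2 of them. At Pde6c, a phosphodiesterase of cone photoreceptors, the WT samples had 63.6, 54.1, 54.4, 68.0 and 60.6% and the mD3AKO samples 82.0, 79.9, 90.0, 94.0 and 79.6% (chromosome 19, 38157392 to 38157462, 2 CpGs in coding exon, 50 to 275 calls). The island shared by the starts of Golgb1, which encodes a Golgi matrix protein, and Eaf2, which encodes an elongation factor partner, had 0.201, 0.136, 0.0576, 0.361 and 0.244% in WT and 0.968, 0.678, 1.83, 1.20 and 1.08% in mD3AKO (chromosome 16, 36874731 to 36875579, 26 CpGs). In muscles after exercise both genotypes lay together at these places, with 79.0% ± 8.90 and 78.8% ± 8.70 at Pde6c and 0.568% ± 0.468 and 0.574% ± 0.304 at Golgb1 and Eaf2 (SD, n = 16 and 18). The other 2 were a zinc finger gene, Zfp35, with 94.2% ± 6.45 in WT and 100% in every mD3AKO sample, and Kifc2, a kinesin, at 0% in every WT sample and 0 to 2.82% in mD3AKO. Of the 4, none was called after exercise.

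Summed over promoters (from 3000 bp before to 1000 bp after a gene start), 2 of 9761 were called lower (0.0205%) and 0 higher. They were Fut11, with the same 22 CpGs as its cluster (edgeR adjusted p = 0.0478), and Mboat7 (0.0478). The call of Fut11 held only without WT 1 or mD3AKO 2 (0.0400 to 0.260 over the 10 fits that left out a sample), and that of Mboat7 only without mD3AKO 2 (0.0465 to 0.260). Unadjusted, 281 promoters (2.88%) were lower and 176 (1.8%) higher, and 57 (0.584%) had every mD3AKO sample below every WT sample against 26 (0.266%) above. Means were lower in mD3AKO at 52.4% of promoters and higher at 45.8%. The remaining promoters of the naming rule were Ctxn1, Sh3bgrl3, Itgb8 and Habp4 (edgeR adjusted p 0.0970 to 0.207), of which all but Habp4 rest on the CpGs of the clusters above. The Habp4 promoter fell from 7.08% ± 2.66 to 0.675% ± 0.843 (SD, n = 5 each), without overlap of the samples.

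Gene bodies gave more calls than promoters, but the numbers are not directly comparable. Each set had its own common dispersion (0.269 for gene bodies, 0.544 for promoters) and its own adjustment. Fut11, with the same CpGs in both, had an edgeR adjusted p of 0.00564 among gene bodies and 0.0478 among promoters. Of 12391, 6 were lower (0.0484%) and 0 higher, namely Comtd1, Fut11, Itgb8, Snx33, Ctxn1 and Habp4. Comtd1 had the lowest p (23 CpGs), with 5.69, 7.51, 3.33, 6.28 and 6.84% in WT and 1.48, 0.402, 0.148, 0 and 1.26% in mD3AKO (log2 odds ratio -3.77, SE 0.62, edgeR adjusted p = 0.00382). Fut11 followed with the same counts as its cluster (adjusted p = 0.00564). The calls of these genes held without any 1 of the 10 samples, with adjusted p up to 0.0424 for both. In the quasi-binomial model Comtd1 kept its call (adjusted p = 0.00725) and Fut11 lost it (adjusted p = 0.586). Snx33, a sorting nexin of endocytic membranes, had 9.27, 5.29, 2.34, 4.28 and 9.00% in WT and 0.58, 0.441, 0, 0.564 and 0.351% in mD3AKO over 8 CpGs (5 in UTR and 3 in intron, adjusted p = 0.0281), again without overlap. Itgb8 (adjusted p = 0.0269) and Ctxn1 (0.0379) repeat their clusters. Habp4 had 21.1, 19.1, 13.1, 21.4 and 13.7% in WT and 6.15, 5.21, 3.30, 7.53 and 10.5% in mD3AKO over 15 CpGs (adjusted p = 0.0497). The calls of these last 4 were less secure. Itgb8 held only without WT 13, mD3AKO 2 or mD3AKO 12, Snx33 only without WT 13 or mD3AKO 2, Ctxn1 only without WT 11 or mD3AKO 2, and Habp4 only without mD3AKO 24, with adjusted p up to 0.132, 0.122, 0.238 and 0.412. Over all gene bodies, 370 (2.99%) were lower and 202 (1.63%) higher at an unadjusted p under 0.05, and samples were apart at 70 (0.565%) and 29 (0.234%). Means were lower at 52.3% of gene bodies and higher at 46.7%. The 11 features called as clusters, promoters or gene bodies belong to 8 genes, and when the 10 resting samples were fitted alone 0 features were called in each of the 3 sets.

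Averaged over all CpGs, the genotype difference at rest was smaller than the spread between mice. The mean level was 26.3, 25.0, 24.4, 25.7 and 25.9% in WT and 25.0, 24.5, 24.1, 25.4 and 25.6% in mD3AKO, so the ranges overlapped. The difference was -0.565 points (25.5% ± 0.765 against 24.9% ± 0.634, SD, n = 5 each, exact permutation test, two-sided, p = 0.230, smallest possible 0.00794). All 6 contexts had a lower mean in mD3AKO, with differences of -0.172 points in promoters, -0.302 in islands, -0.611 in gene bodies, -0.614 outside promoters and gene bodies, -1.01 in open sea and -1.32 in shores. None passed the test (exact permutation p 0.0873 to 0.421, adjusted over the 6 contexts 0.321 to 0.421).

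Weighting and sex both moved this result. With calls pooled over CpGs, which gives CpGs of high coverage more weight, the difference turned to 0.707 points higher in mD3AKO (exact permutation p = 0.833), with a pooled level of 22.5 to 37.1% among WT samples and 25.3 to 37.5% among mD3AKO samples. Females had the higher level and were 3 of 5 in mD3AKO against 2 of 5 in WT. Within females the mean was 26.1% in WT and 25.3% in mD3AKO, and within males 25.1 and 24.3%. Permuting the genotypes within sexes left the difference at -0.565 points (exact permutation p = 0.18). The mean of the within-sex differences, an analysis chosen after the data had been seen, was -0.775 points (exact permutation within sexes, p = 0.04, smallest possible 0.01). Each resting sample was also left out in turn, over all CpGs and by context, which gave 70 fits. The mean was lower in mD3AKO in all 70, with exact permutation p from 0.0476 to 0.746 (unadjusted, smallest possible 0.0159). Only the fits without WT 13 for promoters (-0.226 points) and gene bodies (-0.851 points) had a p under 0.05, 0.0476 for both. They are the lowest of the 70 and were not adjusted for that number.

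**Figure D3:**
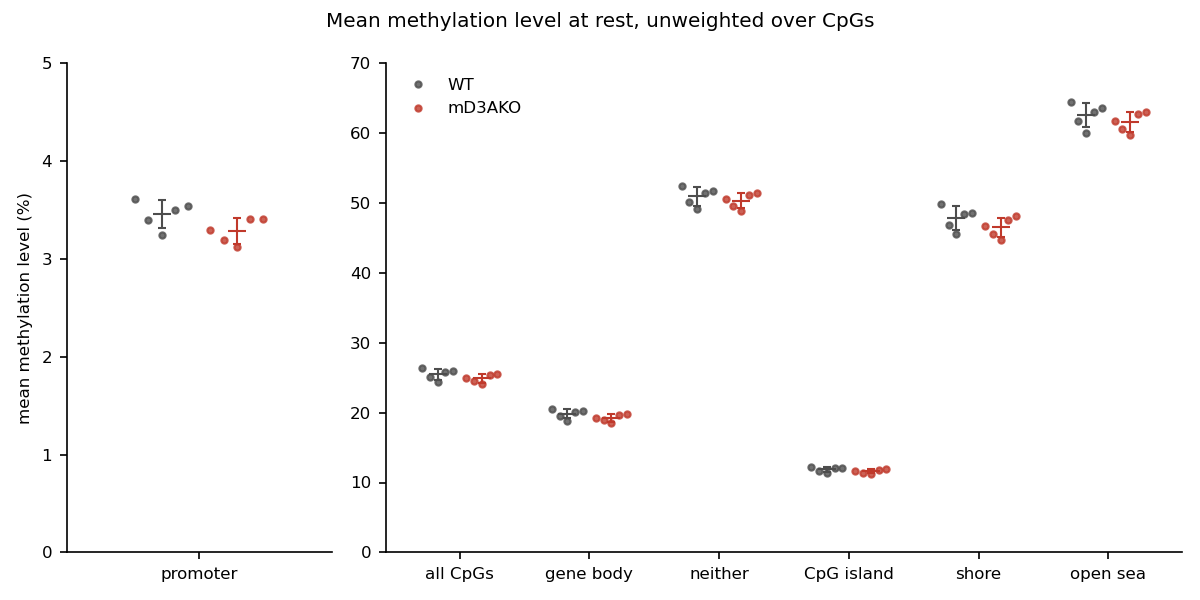
Mean methylation level in percent (y axis) of each resting sample by genomic context, promoters on an axis of their own, with a dot per sample and the mean ± SD (n = 5) as a bar for WT and mD3AKO. The mD3AKO mean lies below the WT mean in each context, with differences of -1.32 to -0.172 points, and the samples overlap.

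Differences over the clusters were tilted to lower values, mostly by small amounts. The mean was lower in mD3AKO at 27881 clusters (54.6%) and higher at 22861 (44.8%), with a median difference of -0.241 points. With at least 50 calls in every resting sample and a difference of at least 10 points, 174 of 32960 clusters (0.528%) had all mD3AKO samples below all WT samples and 42 (0.127%) had them above. By the level in exercised WT mice, which are other animals, the median difference at rest was -0.0348 points at clusters of 0 to 5%, -1.12 at 5 to 20%, -1.86 at 20 to 40%, -1.19 at 40 to 60%, -0.952 at 60 to 80% and -0.489 at 80 to 100%. The median was thus lowest at 20 to 40%. Samples were apart with mD3AKO below WT at 1.41% of clusters of 5 to 20%, against 0.436% at 0 to 5% and 0.756% at 80 to 100%. Clusters in gene bodies away from promoters were apart in this way at 0.962%, promoter clusters at 0.644% and those in neither at 0.661%. For the opposite order these shares were 0.248, 0.263 and 0.252%. These shares are descriptions over clusters of the same 10 samples.

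The genotype difference at rest was then set beside that after exercise, which was measured in different mice. Clusters were called after exercise in a fit to the 34 exercised samples alone. The p-values at rest came from the fit to all 44 samples, so their spread was estimated from the exercised mice as well. After exercise, 291 clusters were called lower in mD3AKO (0.57%) and 1 higher (0.00196%). The muscles at rest showed lower means at 275 of the 291 (94.5%, against 54.6% of all clusters), and at 47 (16.2%, against 0.774%) every resting mD3AKO sample was below every resting WT sample. At an unadjusted p under 0.05, 137 of the 291 were lower at rest (47.1%, against 3.29%). The mean level over the 291 clusters was 33.5, 30.0, 28.4, 33.7 and 32.3% in the resting WT samples and 20.6, 20.4, 19.8, 24.2 and 23.3% in the resting mD3AKO samples, so that the genotypes, which overlapped in the mean over all CpGs, were apart here. Means were 31.6% ± 2.28 and 21.6% ± 1.95 (SD, n = 5 each), and the median difference was -7.58 points (quartiles -15.3 and -3.15). The 3 clusters called at rest were among the 291. The 1 cluster higher after exercise was not higher at rest, with 0.741% in WT and 0.366% in mD3AKO.

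**Figure D4:**
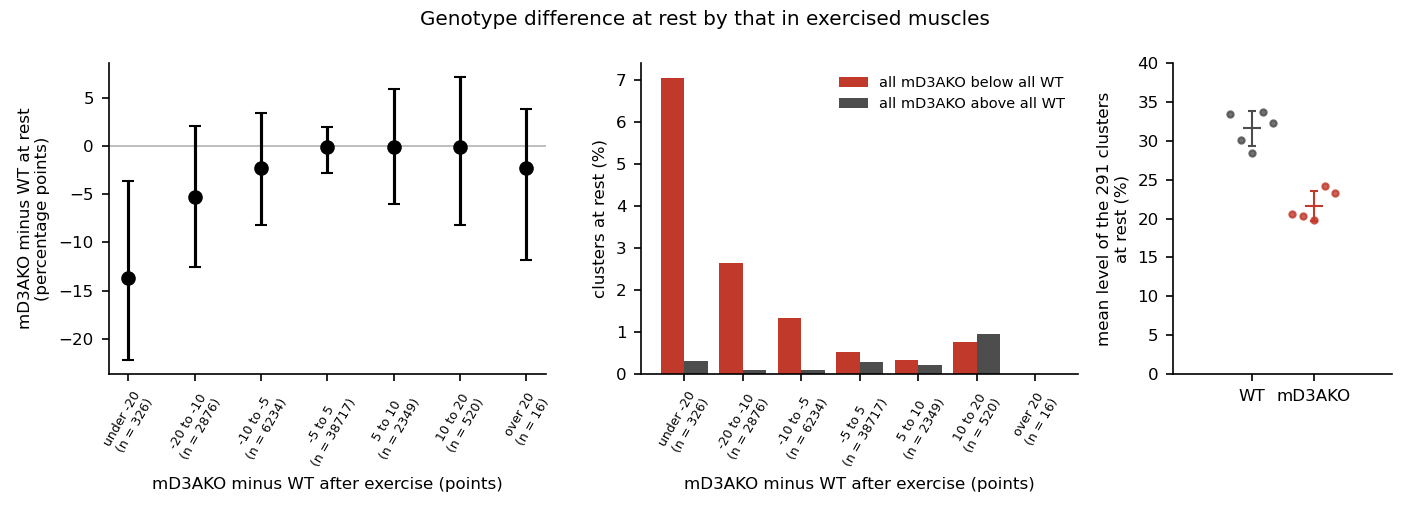
Left, difference between mD3AKO and WT at rest in percentage points (median with quartiles) for clusters binned by the difference after exercise, middle, percentage of clusters in each bin whose resting samples did not overlap, and right, mean level in percent of each resting sample over the 291 clusters called lower after exercise. The median at rest is -13.7 points where the difference after exercise was below -20, and the WT and mD3AKO samples in the right panel lie at 28.4 to 33.7% and 19.8 to 24.2%.

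Grouped by size of the difference after exercise, without regard to any call, the median at rest was -13.7 points for the 326 clusters that were lower by more than 20 points, -5.26 for 2876 lower by 10 to 20 points and -2.31 for 6234 lower by 5 to 10 points. It was -0.108 for the 38717 clusters within 5 points. On the other side it was -0.0706 for 2349 clusters higher by 5 to 10 points and -0.116 for 520 higher by 10 to 20 points, and the bin above that held only 16 clusters (-2.23). Clusters that were lower in exercised mD3AKO muscle were thus lower at rest as well, and those that were higher in it were on the whole not higher at rest.

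The 8 clusters with the lowest p after exercise lay in Fut11, Unc45b, Trim54 and Ucn, Mib2, Ctxn1, Ankrd34a, Comtd1 and Slc9a4. All 8 had lower means at rest and the samples were apart at 6. Trim54 encodes a RING finger protein of the sarcomere and Ucn the peptide urocortin, and their shared cluster (chromosome 5, 31136926 to 31139018, 18 CpGs) had 18.0, 9.12, 8.93, 19.0 and 8.04% in WT at rest and 4.32, 3.35, 1.28, 1.81 and 6.81% in mD3AKO (edgeR adjusted p = 0.631). The highest mD3AKO sample came close to the lowest WT sample. In Ankrd34a, an ankyrin repeat gene, the means were 9.81% ± 2.52 and 3.05% ± 1.97 over 18 CpGs of coding exon (adjusted p = 0.764). Samples overlapped at Mib2, a ubiquitin ligase (9.81% ± 5.48 and 2.81% ± 0.80, adjusted p = 0.872), and at Slc9a4, a sodium-proton exchanger (72.9% ± 11.7 and 57.6% ± 14.3, adjusted p = 1, SD, n = 5 for each).

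Whether the genotype difference itself was different at rest and after exercise was tested at each cluster, and 0 of 51038 were called (edgeR quasi-likelihood test, lowest adjusted p = 0.251, 1740 or 3.41% at an unadjusted p under 0.05). The quasi-binomial model also called 0 (2539 unadjusted) and the likelihood ratio test called 4 (2817 unadjusted). Of the 12 clusters named as lower, 8 were also called after exercise and all 12 had lower means there. The levels after exercise were 15.2% ± 8.18 and 1.55% ± 0.855 at Unc45b, 4.21% ± 1.32 and 1.06% ± 0.482 at Comtd1 and 8.77% ± 3.88 and 0.376% ± 0.347 at Fut11 (SD, n = 16 WT and 18 mD3AKO). The log2 odds ratio at Comtd1 was -3.84 at rest and -2.10 after exercise. At 5 of the 12 (Foxl2, Itgb8, Habp4, Sh3bgrl3 and Comtd1) the difference between rest and exercise had an unadjusted p under 0.05. The 12 were chosen by their difference at rest, which is part of this comparison. Low p-values here are therefore not independent of that choice. Foxl2 had 5.76% ± 2.46 and 4.88% ± 2.84 after exercise, and Itgb8 had 9.38% ± 4.63 and 5.59% ± 3.61. The unadjusted p was 0.000956 at Foxl2, 0.00385 at Itgb8, 0.0172 at Habp4, 0.0215 at Sh3bgrl3 and 0.0280 at Comtd1, and none passed adjustment (edgeR adjusted p = 1 for each).

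The bases beside a CpG were compared at the 40979 CpGs with a level of 20 to 80% in exercised WT mice, in 10 classes that put both strands together. Every class had a lower mean in resting mD3AKO muscle. The difference was -0.862 points for CCGG and -0.95 for TCGA, and -2.80 for GCGC, -2.58 for CCGC and -2.51 for ACGC at the other end. Samples overlapped in each class. CCGG fell least of the 10 classes. The lower mean of all 9 others in mD3AKO relative to CCGG in the same sample thus follows from that choice of reference. The relative levels of the samples did not overlap at 4 of the 9, which were the class ACGA, the class ACGG, the class CCGC and the class GCGC. For GCGC this relative level was -4.46 to -3.02 points in WT and -6.80 to -4.74 in mD3AKO. CCGG is also the MspI site, where reads begin, and the part of this in the result was not tested.

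Gene lists of muscle biology and of the other cell types that a muscle holds were examined as promoters and gene bodies. In 13 lists, 0 of 187 measured promoters and 0 of 243 gene bodies were called (edgeR quasi-likelihood test). At an unadjusted p under 0.05, 5 promoters were lower (2.67%, against 2.88% of all promoters) and 1 higher, and 11 gene bodies were lower (4.53%, against 2.99%) and 5 higher. These shares lay near those of all features. List medians ran from -5.23 to 2.41 points for promoters, the lowest from 3 promoters of blood and immune cell genes, and from -1.21 to 1.60 points for gene bodies.

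The 5 promoters were those of Sim2 and Tead1, transcription factors of muscle lineages, Akt1, a kinase of insulin signalling, and Actn2 and Flnc, an actinin of the Z-disc and a filamin. Akt1 was at 0 in every mD3AKO sample and at 4.08, 5.51, 0, 6.73 and 1.37% in WT (edgeR adjusted p = 1), with 69 to 266 calls. The 1 higher was Hdac5, a histone deacetylase that binds MEF2 factors, with 0.088% in WT and 0.934% in mD3AKO. Among myogenic regulators, 4 of 24 gene bodies had an unadjusted p under 0.05, all lower (Pax7, Mef2c, Mef2d and Sim2, against 2.99% lower over all gene bodies), with a list median of -0.619 points against -0.0698 over all gene bodies. Of these 4, Pax7 and Sim2 were picked by the study with these samples among its data, so their direction is not independent evidence. Pax7 had 5.97% ± 1.60 in WT and 3.25% ± 0.522 in mD3AKO over its 81 CpGs (SD, n = 5 each, edgeR adjusted p = 0.682), and Mef2c had 13.1 and 1.98%.

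In the list of sarcomere and cytoskeleton genes, 1 of 34 gene bodies was lower (Unc45b, adjusted p = 0.125 over its 37 CpGs) and 1 higher. The latter was Des, which encodes the intermediate filament desmin, at 12.7, 18.2, 11.4, 18.6 and 15.5% in WT and 29.0, 22.9, 28.6, 42.4 and 29.1% in mD3AKO over 3 CpGs (edgeR adjusted p = 0.969). After exercise it had 28.4% ± 11.3 in WT and 24.7% ± 10.9 in mD3AKO (SD, n = 16 and 18), so that the resting WT samples were the low ones. The other gene bodies higher at an unadjusted p under 0.05 were Mbd3, Impact, Adgre1 and Cldn5 (adjusted p = 1 for each). Lists of calcium handling and of mitochondria and fat oxidation had 0 features at an unadjusted p under 0.05. Of the gene bodies of other cell types, an unadjusted p under 0.05 was found at 1 of 14 endothelial and mural genes (Cldn5), 0 of 12 fibroblast and adipocyte genes, 3 of 13 blood and immune genes (Cd4, Csf1r and Adgre1) and 1 of 13 nerve and Schwann cell genes (Snap25). Cldn5 and Adgre1 were higher and the others lower, and over all gene bodies these shares were 1.63% higher and 2.99% lower.

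The genes that the study followed were all lower in mD3AKO at rest, at 6 of 6 measured promoters and 8 of 8 gene bodies, with medians of -5.13 and -8.93 points. None was called, and 2 promoters and 4 gene bodies had an unadjusted p under 0.05. Over all features, means were lower at 52.4% of promoters and 52.3% of gene bodies, and 2.88 and 2.99% were lower at an unadjusted p under 0.05. The study picked them with these samples among its data, so their direction is not independent evidence. For Aldh1l1, a folate enzyme, the gene body had 33.2% ± 7.77 in WT and 22.0% ± 4.23 in mD3AKO, and for Eef1a1, a translation elongation factor, 4.66% ± 1.92 and 1.04% ± 1.24 (SD, n = 5 each, edgeR adjusted p = 1 and 0.737). The gene body of 1600002K03Rik had 20.0, 4.22, 4.47, 21.2 and 25.5% in WT and 0.91, 2.85, 1.58, 1.07 and 7.87% in mD3AKO (adjusted p = 0.956), so the WT samples fell in a low and a high set and mD3AKO 24 lay between them.

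Dnmt3a itself was low in methylation near its start and variable at an intronic island. At the island near its start (chromosome 12, 3806533 to 3807218, 13 CpGs, all in UTR) the WT samples had 0, 0.137, 0.312, 1.10 and 0% and the mD3AKO samples 0, 0.171, 0, 0.481 and 0%. An intronic island (3891626 to 3891666, 4 CpGs, 49 to 398 calls) had 2.04, 67.3, 23.3, 27.7 and 24.7% in WT and 0.847, 0, 2.80, 3.20 and 9.80% in mD3AKO (edgeR adjusted p = 1, unadjusted 0.0123). WT 1 lay within the mD3AKO range, and the other 4 WT samples lay above it.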

How the data were processed

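DNA of single soleus muscles was digested with MspI, bisulfite-converted and sequenced as single-end reads. The authors trimmed reads with Trim Galore 0.4.0 (cutadapt 1.9.1), aligned them to mm10 with Bismark 0.18.1, added both strands, required 8 or more reads per CpG in each sample and dropped chromosomes X, Y and M. The deposited table holds raw counts, methylated and unmethylated calls in separate columns for each sample, with the authors' cluster, promoter and gene body of each CpG. The study describes no molecular identifiers and no removal of PCR copies for these reads, so PCR copies may be among the counts. Of 50 samples, 6 were not used here. Groups came from the labels.

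Counts were summed per feature and tested in edgeR 4.0.16 (R 4.3.3) by the quasi-likelihood test with a common dispersion, 1 coefficient for each sample and 1 mean for each of 8 groups, on all 44 samples, with Benjamini-Hochberg adjustment over all features. An SD is over mice. Mean levels were compared by exact permutation of the 252 splits (Python 3.11.15). Scripts were tested on simulated data. Alternatives were the likelihood ratio test, resting samples alone, a quasi-binomial model, limma 3.58.1 on log2 ratios computed from the deposited counts, a coverage minimum of 20, sex as covariate, a filter, cluster gaps of 50 and 200 bp and leaving out each sample. Features were annotated on GRCm38 (13708 of 13722 gene identifiers matched).

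Named features were all those called, then by p with at least 50 calls in every resting sample up to 12 clusters lower and 4 higher, and 6 promoters or gene bodies lower and 3 higher, the 8 clusters with the lowest p after exercise, 2 genes per list, Dnmt3a and the genes the study followed. The members and lists were chosen with earlier results of these data known.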

Additional observations from a re-analysis of the deposited data

Results flagged for a closer look

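Over the named features, each genotype's 5 resting samples were searched for 1 that stood apart from the other 4, and 18 of 162 such groups (11.1%) held one. The test used, Dixon's, picks about 1 in 20 groups by chance if the values follow a normal distribution, and the features are not independent. Some flagged groups lay near 0 or 100%, such as the Kcnq1 and Zim1 promoters, where the other samples were at 0. The share flagged is therefore not comparable with 1 in 20. Of the 18 samples 12 were WT and 6 mD3AKO.

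Among features discussed above, WT 14 had 20.2% at the Fut11 cluster (others 2.27 to 5.25%), mD3AKO 2 had 1.49% at the Ctxn1 cluster (others 0 to 0.225%) and mD3AKO 8 had 2.15% at the Habp4 promoter (others 0.13 to 0.602%). At Dnmt3a, WT 14 had 1.10% at the first cluster and 1.37% over the promoter, which share CpGs (others up to 0.313 and 0.382%). WT 13 had 52.4% at the Aldh1l1 promoter (others 64.4 to 68.9%), WT 20 had 28.1% at the Eef1a1 promoter (others 3.33 to 9.84%), and mD3AKO 24 had 7.87% at the 1600002K03Rik promoter (others 0.91 to 2.85%).

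Among genes of the lists, WT 13 had 99.2% over the Cd4 gene body, 4.86% over the Snap25 gene body and 2.13% at the Zim1 promoter. WT 14 had 76.6% over the Stk31 gene body, WT 20 had 88.4% at the Dpep3 promoter and 0.687% over the Fbxl15 gene body, and WT 11 had 3.86% over the Cldn5 gene body. In mD3AKO, sample 21 had 75.6% at the Cacng1 promoter, where the others had 97.5% or more, and 3.61% at the Kcnq1 promoter, where the others were at 0, and sample 12 had 1.13% over the Hoxd13 gene body. No cause of these values was examined.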

How the results depend on the processing

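At clusters, where 3 were called, the likelihood ratio test called 29 (26 lower), limma 11 (10 lower) and the filter on low or constant features 13, whereas the resting samples alone and cluster gaps of 50 or 200 bp called 0. The gaps were applied to the measured CpGs alone, which gave 73938 clusters at 50 bp and 56150 at 200 bp. These clusters thus differed from the authors' in more than the gap, and levels of single features were not followed in them. At promoters (2) the counts were 8 with the likelihood ratio test, 6 with limma, 6 with the filter, 1 with a coverage minimum of 20 and 0 with the quasi-binomial model or the resting samples alone. At gene bodies (6) they were 16 with the likelihood ratio test (15 lower, and Slc16a1 higher), 3 with the quasi-binomial model (Comtd1 and Habp4 among them) and 0 with the resting samples alone. For rest against exercise the likelihood ratio test called 4 in place of 0 (1 in the body of Wipf1, named after its values were seen, and 3 in no gene body or promoter). Where the resting samples were fitted alone, the spread was estimated from fewer samples. The cause of the other changes was not tested.

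Leaving out 1 resting sample gave 0 to 4 clusters (0 without WT 14 or WT 20), 0 to 4 promoters and 2 to 5 gene bodies. The median at rest of the 291 clusters lower after exercise was then -8.95 to -7.10 points. With the likelihood ratio test and with a coverage minimum of 20 the clusters were chosen anew. The likelihood ratio test gave 1018 clusters, of which 865 were lower at rest, with a median of -6.15 points. The coverage minimum of 20 gave 225 clusters, of which 217 were lower, with a median of -8.88 points. Both medians stayed within 1 SD. The mean level difference was -0.838 to -0.353 points, and by context -0.226 to -0.130 in promoters, -0.851 to -0.426 in gene bodies, -1.08 to -0.25 outside both, -0.427 to -0.201 in islands, -1.90 to -0.819 in shores and -1.63 to -0.538 in open sea.

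With calls pooled, the difference in level reversed to 0.707 points over all CpGs, 0.578 in promoters, 0.434 in gene bodies, 0.687 outside both and 0.467 in islands. The mean difference within sexes, chosen after seeing the data, passed an unadjusted p of 0.05 at -0.775 points over all CpGs, -0.213 in promoters, -0.792 in gene bodies, -0.398 in islands and -1.79 in shores.

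Of 187 alternatives for the 11 features called, 97 stayed called, 90 lost the call and 0 reversed. Of 1175 alternatives for the other named features, 44 gained a call, in 16 features. With a coverage minimum of 20 the log2 odds ratio reversed to -0.943 at the Mbd3 gene body, which was positive in the main fit. It reversed to 1.22 at the Csf1r gene body and 1.01 at the Dnmt3a gene body, both negative in the main fit. In the quasi-binomial model it reversed to -0.149 at the third Dnmt3a cluster described above, which was positive in the main fit. No paired analysis was possible because each mouse had a number of its own and no number was shared between the groups.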
